A study of Equus caballus with 10 samples.

Results

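The genes described here encode the receptors through which cells bind and take up native collagen. The set consisted of 8 genes, picked out by symbol: the integrin α subunits ITGA1, ITGA2, ITGA10 and ITGA11, their shared partner ITGB1, the discoidin domain receptors DDR1 and DDR2, and the endocytic receptor MRC2. All 8 were found among the 29196 genes of the table and all 8 were among the 17992 genes tested. RNA came from primary tendon cells of 5 horses. The cells were taken after death from a flexor tendon of the limb (the superficial digital flexor), passaged and grown in gels of bovine type I collagen for 14 days. Every library came from gels that received PF-06650833, an inhibitor of the kinase IRAK4, at 100 nM each day. In 1 group (PF, 5 libraries) this was the sole addition, and in the other (PF + IL-1β, 5 libraries) the inflammatory cytokine IL-1β was also given, at 17 ng/ml every 3 to 4 days. Each donor supplied 1 library to each group, and the donors are numbered 1 to 5. Gels without PF-06650833 were not analysed here, so all values concern the effect of IL-1β in the presence of the inhibitor.

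Collagen-binding integrins are pairs of an α and a β subunit, and the α subunits encoded by these genes all pair with β1. The α1 and α10 subunits favour network-forming collagens, whereas α2 and α11 favour fibrillar collagens such as type I, the material of the gel and of tendon, and integrins of this type transmit the pull of a cell to collagen fibrils. DDR1 and DDR2 are receptor tyrosine kinases that are switched on by triple-helical collagen, DDR1 mainly in epithelial cells and DDR2 mainly in cells of connective tissue. MRC2, also called Endo180 or uPARAP, carries collagen fragments into the cell for breakdown.

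Values are variance-stabilized log2 values, on which 1 unit is close to a doubling for genes with many reads. Low values are compressed toward 3.43, the value that stands for 0 reads. Depth, estimated from the spacing of the lowest values, was about 26390212 to 35802858 reads per library with PF and 26740580 to 33396353 with PF + IL-1β. Of 11 tenocyte markers 10 could be tested and 4 were lower with IL-1β, namely SCX, MKX, TNC and COMP, and 6 were not called, of which DCN (log2 fold change 1.01, adjusted p = 0.268) and EGR1 (0.47, adjusted p = 0.254) had positive values. TNMD, a defining gene of mature tendon, was at 0 in all libraries. The tenocyte markers summed to 894672 to 1480190 normalized counts with PF and 242667 to 1000260 with PF + IL-1β. With PF, COL1A1 supplied 274858 to 745803 of these counts and COL1A2 369520 to 566414, whereas SCX supplied 1179 to 4625. Neither collagen gene was called, and both also stand among the collagen ligands below. Of 6 endothelial markers 4 could be tested and 0 were called, with a sum of 16.3 to 42.8 normalized counts in PF libraries and 5.12 to 27.4 in PF + IL-1β libraries. Of 5 epithelial markers 2 could be tested and 1 was lower (a sum of 534 to 1571 against 43.1 to 444), and of 5 chondrocyte markers 2 could be tested and 1 was lower (856 to 1370 against 255 to 518). The leukocyte genes AIF1 and CD3E and the epithelial genes EPCAM and KRT5 were at 0 in all libraries. Of 6 pericyte and smooth muscle markers 3 were lower with IL-1β, and their sum was 3956 to 37551 normalized counts with PF and 4651 to 13498 with PF + IL-1β. Of 7 leukocyte markers 2 could be tested. CD68 was called higher (52.8 to 103 normalized counts with PF, 170.0 to 738 with PF + IL-1β) and CD14, at 0 to 1662 and 0 to 1682, was not, and the list summed to 52.8 to 1756 and 170.0 to 1907. The part of these marker shifts in the results below was not tested, and in bulk RNA fewer cells of a type and less RNA per cell cannot be told apart.

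Calls required an adjusted p under 0.05 in a limma fit to all tested genes together with a log2 fold change of 1 or more in either direction. By this rule 2 of the 8 collagen receptor genes were called, against 6.68% of all tested genes. ITGA11 was lower with PF + IL-1β, where 3.57% of all genes were called lower, and DDR1 was higher, where 3.11% were called higher. With the donor as a replicate block 3 of the 8 were called, ITGA1 in addition to the first pair, against 8.26% of all genes. The 8 genes had a median log2 fold change of -0.57, and all tested genes one of -0.01. Without the minimum fold change, DDR2 also passed, giving 3 of 8 against 15.5%. In the blocked fit ITGA1 and MRC2 passed as well, giving 5 of 8 against 22.2%. The 5 libraries of each group did not overlap for ITGA11, DDR1 and DDR2, which is 3 of 8 genes against 12.7% of all genes.

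**Figure D1:**
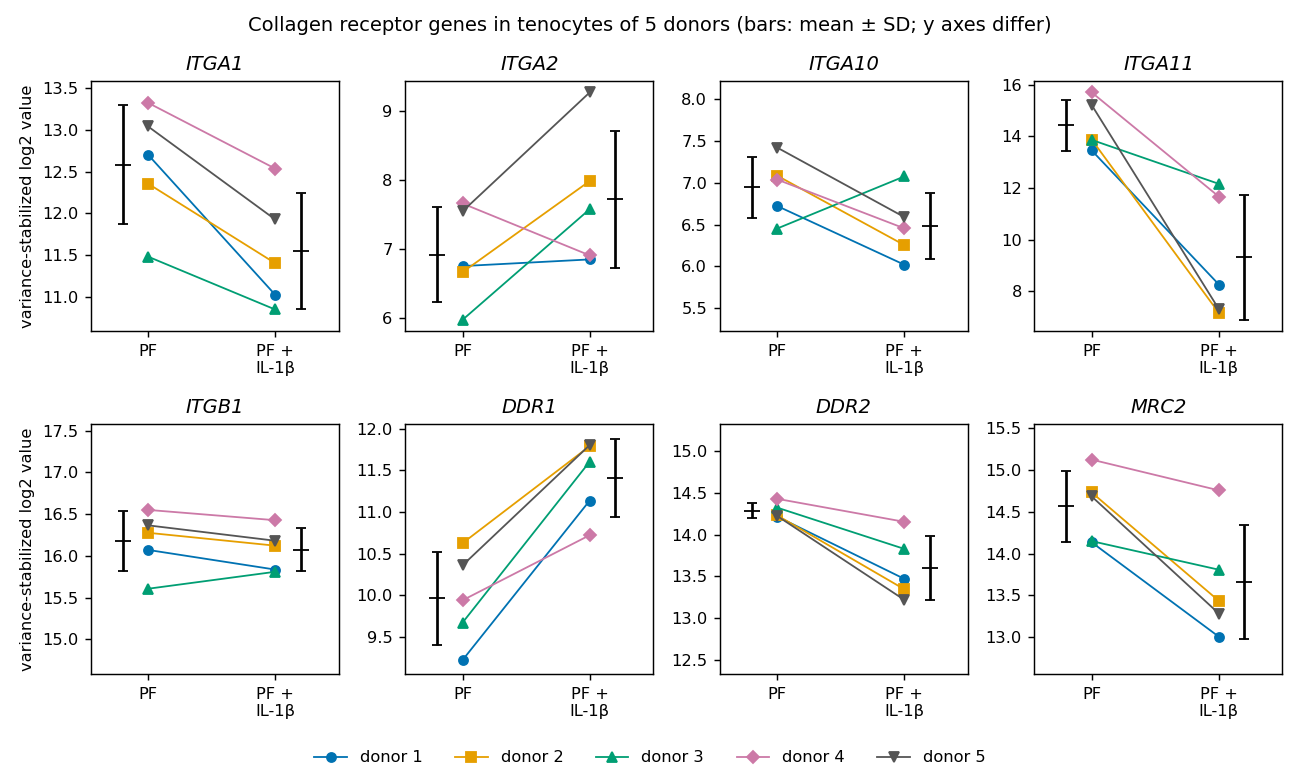
Variance-stabilized log2 value of each collagen receptor gene (y axis, a separate range for each gene) with PF and with PF + IL-1β, where lines join the libraries of a donor and bars give the mean ± SD of 5 libraries. ITGA11 drops in every donor, to between 7.17 and 12.16, DDR1 rises in every donor, and ITGB1 stays between 15.61 and 16.55 in all libraries.

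ITGA11, the α subunit that fibroblasts and other mesenchymal cells use to hold fibrillar collagen, fell by far the most of the 8 genes. With PF it was at 13.46, 13.87, 13.86, 15.70 and 15.21 in donors 1 to 5. With PF + IL-1β the same donors were at 8.27, 7.17, 12.16, 11.67 and 7.31. All 5 values with IL-1β lay below all 5 without it, and donors 3 and 4 kept far more transcript than the other 3. The mean was 14.42 ± 0.98 (SD, n = 5) with PF and 9.32 ± 2.42 (SD, n = 5) with PF + IL-1β. This is a log2 fold change of -5.11 (standard error 0.99, 95% confidence interval -7.28 to -2.93, adjusted p = 0.00628 from limma), or 34.4-fold lower. In normalized counts, recovered by inverting the transformation, the PF libraries held 11218 to 53241. Donors 1, 2 and 5 held 287, 123 and 138 with IL-1β, and donors 3 and 4 held 4560.5 and 3234. The fall within a donor was thus between 3.26-fold in donor 3 and 274-fold in donor 5.

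The SD of ITGA11 among donors was 0.98 with PF and 2.42 with PF + IL-1β. The slope of a donor's differences over the 17992 tested genes on the mean of the other 4 donors was 0.551 in donor 3 and 0.758 in donor 4, against 0.916, 1.05 and 1.17 in donors 1, 2 and 5. The number of genes that differed by 1 log2 unit or more was 1455 in donor 3 and 2271 in donor 4, against 2094, 2705 and 3012 in donors 1, 2 and 5. Donor 3 was thus lowest on both measures, whereas donor 4 was below donor 1 in slope and above it in the number of genes. The part of this in the spread of ITGA11 was not tested. ITGA11 was called in each of 15 fits made without 1 library or 1 donor, with log2 fold changes between -5.96 and -4.41 and adjusted p-values between 0.00229 and 0.0406.

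Among genes with a symbol, the 3 whose centred values lay nearest to those of ITGA11 over the 10 libraries were CACNA1H, which encodes a T-type calcium channel subunit, LMCD1, a LIM domain protein, and SFRP2, a secreted WNT antagonist. Their root mean square differences from ITGA11 were 0.859, 0.876 and 0.975 log2 units. CACNA1H changed by -4.90, -5.58, -2.50, -3.01 and -4.99 in donors 1 to 5, and LMCD1 by -4.18, -5.68, -2.65, -4.68 and -7.20. The lowest PF + IL-1β library was at 3.43, the value of 0 reads, for LMCD1 and at 4.25 for CACNA1H. The largest falls of these genes are thus limited by the floor of the scale. In both genes the smallest difference was that of donor 3, as in ITGA11. The genes were chosen by closeness to ITGA11 in these same libraries, so a like order of donors follows in part from the choice. SFRP2 differed least in donor 4 (-3.42) and most in donor 5 (-7.51).

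**Figure D2:**
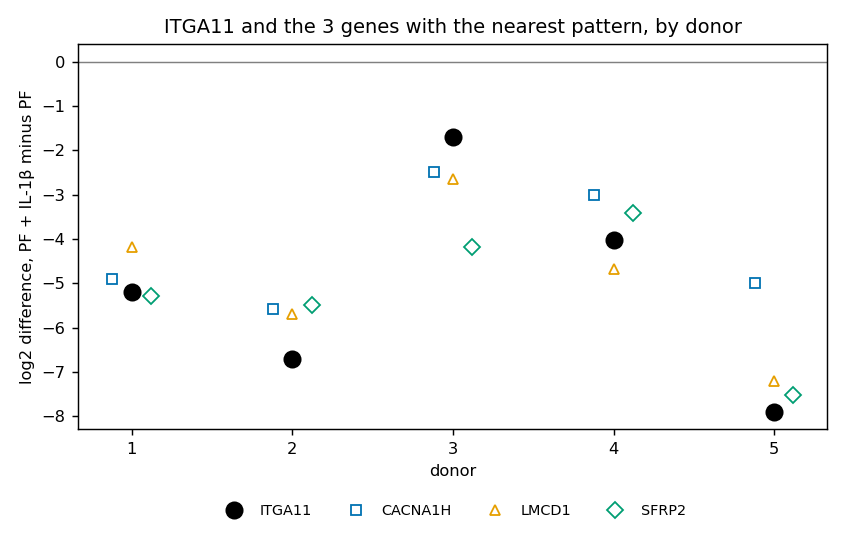
Within-donor log2 difference, PF + IL-1β minus PF (y axis), in donors 1 to 5 (x axis) for ITGA11 (filled circles) and the 3 genes of nearest pattern (open symbols). ITGA11 spans -7.90 in donor 5 to -1.70 in donor 3. The 3 genes were chosen by closeness to ITGA11 in these same libraries.

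ITGA1 encodes the α1 subunit, which together with β1 binds network-forming and fibrillar collagens. It was at 12.71, 12.36, 11.48, 13.33 and 13.04 in donors 1 to 5 with PF and at 11.03, 11.40, 10.85, 12.54 and 11.93 with PF + IL-1β. It was lower with IL-1β in 5 of 5 donors, with differences of -1.68 to -0.63 log2 units, yet the groups overlapped because donors differed by more than this. Donor 4 was highest and donor 3 lowest in both groups. The log2 fold change was -1.03 (standard error 0.38, 95% confidence interval -1.87 to -0.20, adjusted p = 0.0930 from limma), which did not pass, and with the replicate block the adjusted p was 0.00307 (standard error 0.15), which did. ITGA1 also passed without the PF library of donor 3 (log2 fold change -1.31, adjusted p = 0.0271), without the PF + IL-1β library of donor 4 (-1.28, adjusted p = 0.0304) and without donor 3 (-1.14, adjusted p = 0.0447). In the RefSeq annotation of another horse assembly the span of the gene PELO overlaps that of ITGA1. In the same annotation DDR1, DDR2 and MRC2 also overlap genes that have only a LOC number, as does ITGA1. Only whole gene spans were compared. Whether the transcripts share sequence, so that the assignment of reads is less certain, was not tested. PELO itself had a log2 fold change of -0.57 (adjusted p = 0.00534).

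ITGA2, the α2 subunit of a major receptor for type I collagen, was the 1 integrin subunit of the set with a positive log2 fold change. It was at 6.75, 6.66, 5.97, 7.66 and 7.54 with PF and at 6.85, 7.98, 7.58, 6.91 and 9.27 with PF + IL-1β. The value was higher by 1.32, 1.60 and 1.72 in donors 2, 3 and 5, hardly different in donor 1 (0.10) and lower in donor 4 (-0.75). Its log2 fold change of 0.80 did not pass (standard error 0.48, 95% confidence interval -0.25 to 1.84, adjusted p = 0.295 from limma), and the interval reaches beyond a doubling. The gene was read at 43.1 to 594 normalized counts.

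ITGA10, best known as the α subunit of cartilage cells, was at 6.72, 7.09, 6.45, 7.04 and 7.42 with PF and at 6.02, 6.25, 7.08, 6.45 and 6.59 with PF + IL-1β. The difference was -0.83 to -0.59 in donors 1, 2, 4 and 5 and 0.63 in donor 3. The groups overlapped, and the log2 fold change of -0.47 did not pass (standard error 0.25, 95% confidence interval -1.02 to 0.09, adjusted p = 0.245 from limma). ITGA10 was read at 45.0 to 151 normalized counts.

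ITGB1 encodes the β1 subunit that all of these α subunits, and several others, need to reach the cell surface. It was at 16.07, 16.28, 15.61, 16.55 and 16.37 with PF and at 15.84, 16.12, 15.81, 16.43 and 16.18 with PF + IL-1β. Its log2 fold change was -0.10 (standard error 0.22, 95% confidence interval -0.58 to 0.38, adjusted p = 0.813 from limma), so a change of 1 log2 unit in either direction lay outside the interval. Of its variance over the 10 libraries 89.5% lay between donors and 3.01% between the groups. For ITGA11 these shares were 16.9% and 70.6%.

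**Figure D3:**
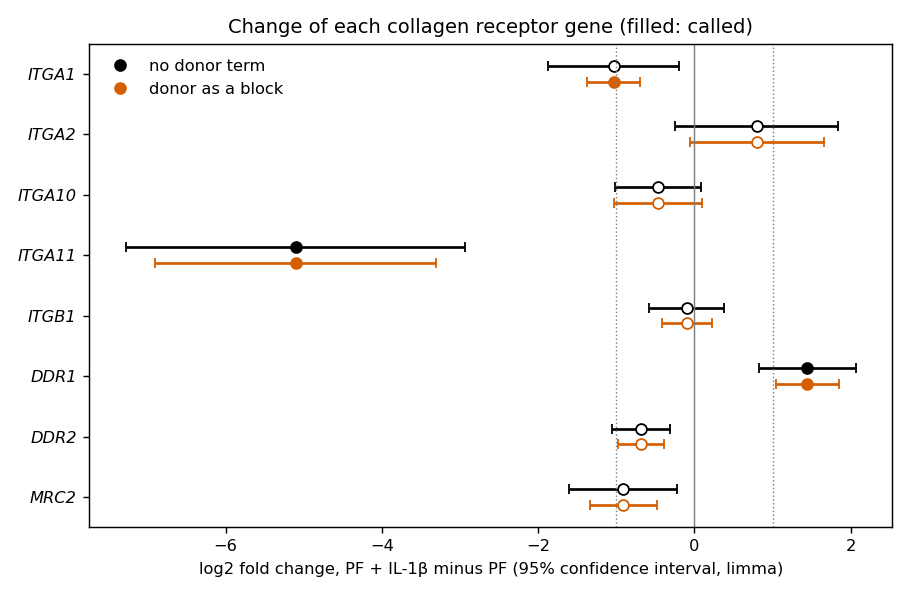
Log2 fold change of each gene, PF + IL-1β minus PF (x axis), with its 95% confidence interval from limma without a donor term (black) and with the donor as a block (orange), where filled points were called and dotted lines mark 1 log2 unit. ITGA11 and DDR1 are called in both fits, ITGA1 in the blocked fit, and the intervals of ITGA2, ITGA10 and ITGB1 include 0 in both.

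The discoidin domain receptors had log2 fold changes of opposite sign. DDR1 was at 9.22, 10.63, 9.67, 9.94 and 10.36 in donors 1 to 5 with PF and at 11.14, 11.79, 11.60, 10.72 and 11.80 with PF + IL-1β. The lowest library with IL-1β, that of donor 4, lay just above the highest without it, that of donor 2. The rise amounted to 1.45 on the log2 scale (standard error 0.28, 95% confidence interval 0.83 to 2.07, adjusted p = 0.00656 from limma), or 2.73-fold, and was seen in 5 of 5 donors, between 1.73-fold in donor 4 and 3.89-fold in donor 3. DDR1 was called in each of the same 15 fits, with adjusted p-values between 0.00312 and 0.0290. The genes with a symbol of nearest pattern to DDR1 were SPNS2, a sphingosine-1-phosphate transporter, PIR, which encodes pirin, and UGCG, the ceramide glucosyltransferase, at root mean square differences of 0.303, 0.343 and 0.362 log2 units. PIR (log2 fold change 1.18, adjusted p = 0.00821) and UGCG (1.27, adjusted p = 0.00148) were called, and SPNS2 was not (0.90, adjusted p = 0.109).

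DDR2, the form of connective tissue cells, was nearly equal among donors with PF, at 14.22, 14.23, 14.32, 14.43 and 14.22. With PF + IL-1β it was at 13.47, 13.34, 13.83, 14.15 and 13.22, all below the PF values, with donor 4 closest to them. Its SD was 0.09 with PF and 0.38 with PF + IL-1β. The log2 fold change of -0.68 had an adjusted p of 0.0198 from limma (standard error 0.17, 95% confidence interval -1.05 to -0.31) but stayed under the minimum fold change, so DDR2 was not called. Its adjusted p was 0.0916, 0.0941 and 0.0827 without donor 1, 2 or 5, and 0.0532 and 0.0564 without the PF + IL-1β library of donor 1 or 2.

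MRC2, the endocytic receptor, was at 14.13, 14.73, 14.15, 15.13 and 14.68 with PF and at 13.00, 13.43, 13.81, 14.76 and 13.28 with PF + IL-1β. It was lower in 5 of 5 donors, with differences of -1.13, -1.30 and -1.40 in donors 1, 2 and 5 and of -0.34 and -0.37 in donors 3 and 4. The groups overlapped, since donor 4 with IL-1β lay above 4 of the PF libraries. The log2 fold change was -0.91 (standard error 0.31, 95% confidence interval -1.60 to -0.22, adjusted p = 0.0755 from limma). MRC2 was called without the PF + IL-1β library of donor 4 (log2 fold change -1.19, adjusted p = 0.00687) and without donor 4 (-1.04, adjusted p = 0.0126), and with the replicate block its adjusted p was 0.0125 at a fold change still under the minimum.

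To see whether the receptors shifted against each other, the log2 ratio of 2 genes was taken within each library for 11 pairs. These are the 6 pairs of α subunits, each α subunit with ITGB1, and DDR2 with DDR1. The levels are not corrected for gene length, so only the shift of a ratio between groups is read. The mean shift of a ratio is the difference of the log2 fold changes of its genes, so the ratios are not results independent of those above. Each shift was tested with an exact two-sided permutation test over the group labels of the 10 libraries, whose smallest possible p is 0.00794, and adjusted over the 11 pairs. This test ignores the pairing by donor, and the paired alternative is given in the last section.

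The ratio of ITGA11 to ITGB1 shifted by -5.01 log2 units (standard error 1.14, exact permutation p = 0.00794, adjusted p = 0.0218) and was lower in 5 of 5 donors, with shifts of -7.71 to -1.91. The ratio of ITGA11 to ITGA2 shifted by -5.90 (standard error 1.39) and that to ITGA10 by -4.64 (standard error 1.04), each with the same exact p and adjusted p. The ratio of ITGA11 to ITGA1 shifted by -4.07 (standard error 1.15, exact permutation p = 0.0159, adjusted p = 0.0327). Each of the 4 ratios with ITGA11 was lower in 5 of 5 donors. Without donor 1, 2, 3 or 5 none of the 4 passed (adjusted p = 0.0524 to 0.105 by the exact permutation test). Without donor 4 all but that to ITGA1 passed (adjusted p = 0.0698 for ITGA1 and 0.0449 for the rest). The floor of 0.0286 before adjustment applies to each of these tests, and to those without a donor below.

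The ratio of DDR2 to DDR1 shifted by -2.13 (standard error 0.44, exact permutation p = 0.00794, adjusted p = 0.0218), or 4.37-fold in favour of DDR1, and the groups did not overlap. It was lower in 5 of 5 donors, with shifts of -2.66 to -1.06. Its adjusted p by the exact permutation test was 0.0629, 0.0786, 0.0524 and 0.0786 without donor 1, 2, 3 or 5, and 0.0449 without donor 4. Among the smaller changes, ITGA2 gained on ITGA1 by 1.83 (standard error 0.52, exact permutation p = 0.0238, adjusted p = 0.0327), with a shift of just 0.04 in donor 1 and of up to 2.84 in other donors. ITGA10 lost against ITGA2 (shift -1.26, standard error 0.47), with a lower ratio in 4 of 5 donors and a shift of 0.17 in the other. ITGA1 lost against ITGB1 (shift -0.94, standard error 0.27), with a lower ratio in 5 of 5 donors. Both had an exact permutation p of 0.0238 and an adjusted p of 0.0327. These 3 ratios passed without donor 4 (adjusted p = 0.0449) and not without any other donor (0.0698 to 0.118). The remaining 3 ratios did not pass, namely ITGA10 to ITGA1 (shift 0.57, exact permutation p = 0.230, adjusted p = 0.230), ITGA2 to ITGB1 (0.90, p = 0.103, adjusted p = 0.126) and ITGA10 to ITGB1 (-0.37, p = 0.159, adjusted p = 0.175).

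**Figure D4:**
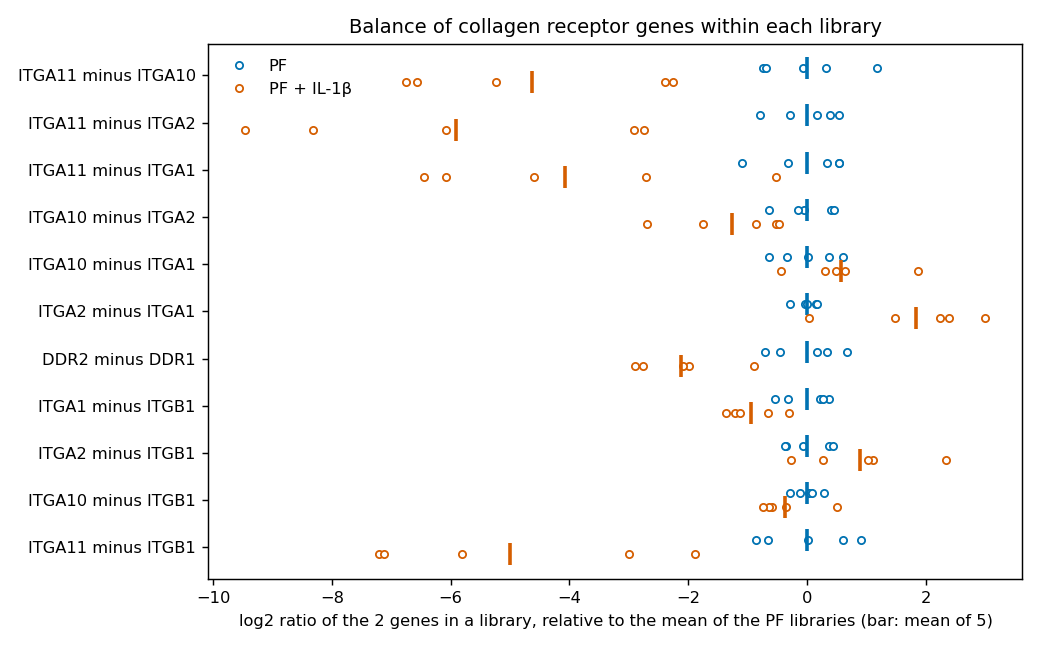
Log2 ratio of 2 receptor genes within each library, drawn relative to the mean of the 5 PF libraries (x axis), for 11 pairs; open circles are libraries and vertical bars are group means. The 4 ratios with ITGA11 shift by -5.90 to -4.07 log2 units with PF + IL-1β, and that of DDR2 to DDR1 by -2.13.

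Genes around the receptors were counted from lists of symbols. Over all tested genes 6.68% were called, 3.11% higher and 3.57% lower, and 8.26% were called with the replicate block. Of the other integrin α subunits 13 of 14 could be tested, of which 1 was called higher and 2 lower, with a median log2 fold change of 0.06. ITGA9, whose product binds tenascin and related ligands, fell from 10.69 to 9.23 in the group means (log2 fold change -1.46, adjusted p = 0.00479). ITGA7, a laminin-binding subunit, had a log2 fold change of -3.32 (adjusted p = 0.0217), and ITGA4, which binds fibronectin and VCAM-1, one of 1.11 (adjusted p = 0.0241). Of this list 1 gene was called without the PF library of donor 5, without the PF + IL-1β library of donor 2 and without donor 1, 2 or 5. Further α subunits that pair with β1 did not pass, among them the fibronectin-binding ITGA5 (log2 fold change 0.13, adjusted p = 0.628) and the laminin-binding ITGA6 (0.06, adjusted p = 0.958). ITGA8 did not pass either (-2.20, adjusted p = 0.177), but it was lower in 5 of 5 donors. With the replicate block ITGA8 was called lower (adjusted p = 0.0202 with the block).

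Of 24 genes for integrin activation and adaptor proteins, 0 were called higher and 3 lower, with a median of -0.36. KANK1, which links talin to the cell cortex, had a log2 fold change of -1.83 (adjusted p = 0.00182), LIMS2, a partner of integrin-linked kinase, one of -1.27 (adjusted p = 0.00465), and TLN2, the second talin, one of -1.35 (adjusted p = 0.00590). The first talin, TLN1, which couples β subunits to actin, did not pass (-0.30, adjusted p = 0.279), nor did ILK (-0.33, adjusted p = 0.170). FERMT2, which encodes kindlin-2, reached an adjusted p of 0.0152 at a log2 fold change of -0.49, under the minimum. The library groups of KANK1, LIMS2 and TLN2 did not overlap, nor did those of FERMT2 and TNS3, which were not called. Those of the other genes of the list overlapped. Groups did not overlap for 12.7% of all tested genes. KANK1, LIMS2 and TLN2 were picked as called genes, so that share is no measure for them. These called genes were also called with the replicate block. Without donor 3, 5 genes of this list were called.

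Of 16 collagen ligands 13 could be tested, of which 0 were called higher and 2 lower. All 13 had a negative log2 fold change, with a median of -0.79, against -0.01 over all tested genes. Of these, COL5A3 (-0.19, adjusted p = 0.874) was lower in just 3 of 5 donors. COL10A1 was near the floor, at 0 to 5.20 normalized counts with PF and 0 to 1.40 with PF + IL-1β. COL11A1, a fibril-initiating minor collagen, had a log2 fold change of -3.46 (adjusted p = 0.00344) and COL5A1, which nucleates type I fibrils, one of -1.10 (adjusted p = 0.0468). With the replicate block 5 collagen genes were called lower, adding COL1A1 (log2 fold change -1.38, adjusted p = 0.0147 with the block), COL1A2 (-1.28, adjusted p = 0.0169 with the block) and COL6A3 (-1.16, adjusted p = 0.0110 with the block). The count depended on single libraries. It was 6 without the PF + IL-1β library of donor 4, 5 without donor 4, and 1 without donor 1, 2 or 5, without the PF library of donor 1, 4 or 5, or without the PF + IL-1β library of donor 1, 2 or 5.

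Of 8 other collagen receptors and members of the mannose receptor family 3 could be tested, and 0 were called. GP6, LAIR1 and CD36 were at 0 in all libraries. PLA2R1, a relative of MRC2, was at 9.14 ± 0.46 (SD, n = 5) with PF and 9.19 ± 0.17 (SD, n = 5) with PF + IL-1β. CD44, a hyaluronan receptor that also binds collagen, was lower with an adjusted p of 0.0103 but a log2 fold change of -0.83, under the minimum.

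Of 10 partners of MRC2 in collagen uptake and breakdown, 2 were called higher and 1 lower, with a median of 0.44. CTSD, a lysosomal protease, rose by 1.10 log2 units (adjusted p = 0.00551), and PLAUR, the urokinase receptor that associates with the MRC2 protein, rose by 1.00 (adjusted p = 0.0145), at the minimum fold change. FAP, a fibroblast surface protease that cleaves denatured collagen, fell by 2.38 (adjusted p = 0.00646). Without donor 5, 1 gene of this list was called. Of 9 DDR adaptors, sheddases and collagenases, 1 was called higher and 0 lower, with a median of 0.22. MMP1, an interstitial collagenase, rose by 5.97 (standard error 1.42, adjusted p = 0.0165), although its PF libraries ranged from 4.21 to 11.95 and overlapped with those of PF + IL-1β at 11.80 to 17.62. MMP13, a collagenase linked to DDR2 signalling, did not pass (log2 fold change 2.05, standard error 0.81, adjusted p = 0.113). ADAM10, which sheds the DDR1 ectodomain, reached an adjusted p of 0.00851 at a log2 fold change of 0.49, under the minimum. The number called was 0 without donor 1 or 5, 3 without donor 3, and 2 without the PF library of donor 3 or the PF + IL-1β library of donor 1, 3 or 5.

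**Figure D5:**
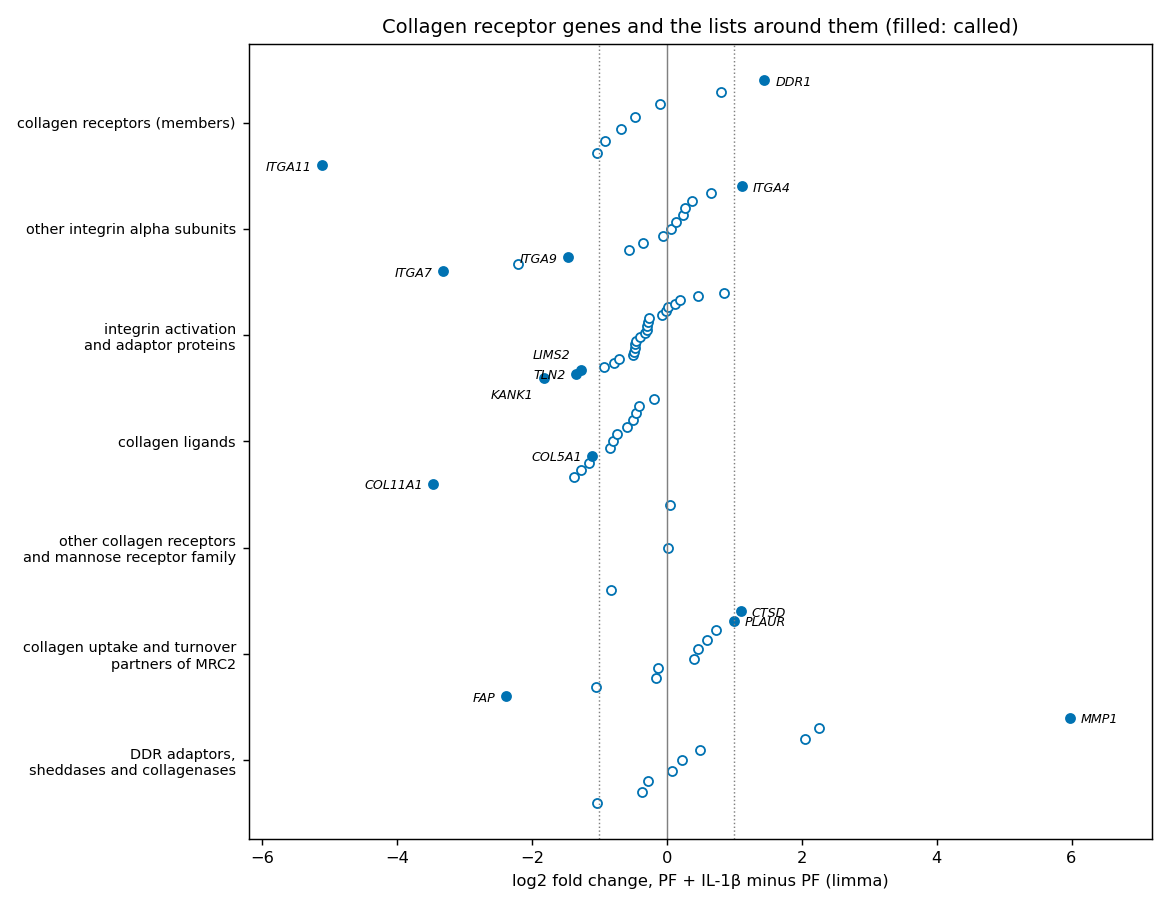
Log2 fold change, PF + IL-1β minus PF (x axis), of every tested gene in the collagen receptor set and in 6 lists around it (y axis), where filled points were called and dotted lines mark 1 log2 unit. The 13 collagen ligands all lie below 0, while ITGA11 at -5.11 lies lowest of all genes drawn.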

How the data were processed

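Libraries of polyA RNA from 5 donors in each of 2 groups were analysed. Per the submitters' processing notes and the study's methods, Salmon (version 1.8) with correction for GC bias was run against RefSeq transcripts of EquCab3.0, with tximport for gene totals. The authors deposited variance-stabilized log2 values normalized between libraries. The transformation is not named in the sources used here and was recognised from the lowest value, 3.43, shared by all libraries. It was inverted from that value to give normalized counts, so these counts, and the read depths estimated from them, are approximate. Positions are not given, as the RefSeq table used for names is of another assembly, in which all 8 members were found.

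A gene was tested if 5 or more of the 10 libraries exceeded the lowest value. The 17992 genes so kept entered 1 limma fit (version 3.58.1, under R 4.3.3) with trended prior variance, and p-values were adjusted over all of them by the Benjamini-Hochberg method. Every adjusted p of a gene is from that fit unless a block is named. The study names no donor term, so the donor block is an alternative. The replicate number is the donor, taken from the sample labels, and deviations from the group means were correlated within donors (r across genes 0.367 to 0.506 over 5 pairs, against -0.266 to 0.0869 over 20 pairs of different donors). Deviations cancel over the donors of a group, so a positive r within donors in part forces a lower r between donors. The fit was tested on simulated data. The members and lists were chosen with earlier results of these data known. All members are described. From each list up to 4 called genes with the smallest adjusted p are named, or, where 0 were called, those with the highest mean value. Further genes named as not passing (ITGA5, ITGA6, ITGA8, TLN1, ILK, FERMT2, TNS3, COL5A3, COL10A1, MMP13, ADAM10, MYH11, MCAM), and COL1A1, COL1A2 and COL6A3, were chosen after their values were seen. COL3A1 and LY75 were not analysed here.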

Additional observations from a re-analysis of the deposited data

Results flagged for a closer look

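Among 82 groups of 5 libraries, from the collagen receptor genes, their ratios and the called genes of the lists, 2 held a library far from the other 4, where chance gives about 4.1. ITGA7 was at 8.23 in donor 4 with PF + IL-1β, against 5.07 to 5.92 in the other donors. CDH1, an epithelial marker, was at 10.64 in donor 4 with PF, against 9.11 to 9.47. No group of the 8 collagen receptor genes or of their ratios was among them.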

How the results depend on the processing

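The directions of 7 of the 8 collagen receptor genes held under all 25 alternatives, and that of ITGB1 turned under quantile normalization (log2 fold change 0.0556, against -0.10). The calls of ITGA11 and DDR1 held under all 25. With the replicate block 2 receptor genes (against 1) and 5 collagen ligands (against 2) were called lower. Of the DDR list 3 genes were called with the block, 2 higher and 1 lower, against 1 higher without it. Without a minimum fold change there were 2782 calls in all (1362 higher, 1420 lower), against 1202 (560 higher, 642 lower), with 2 receptor genes lower, 6 adaptors (against 3), 1 other collagen receptor (against 0) and 3 genes of the DDR list. At an adjusted p below 0.01 there were 719 (345 higher, 374 lower), with 1 other α subunit (against 3), 1 collagen ligand and 0 genes of the DDR list. Collagen ligands numbered 1 with all genes that are not constant, and 4 without the trend or with a robust one.

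Leaving out a library or a donor gave 762 to 1422 calls (356 to 647 higher, 389 to 775 lower), with 762, 790 and 777 in all without donors 1, 2 and 5. It gave 2 to 4 receptor genes, 1 to 3 of them lower, with 4 when the PF + IL-1β library of donor 4 was left out. The lists ranged from 1 to 3 (other α subunits), 3 to 5 (adaptors), 1 to 6 (collagen ligands), 1 to 4 (MRC2 partners) and 0 to 3 (DDR list).

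For the ratios, the paired sign-flip test of 5 donors cannot go below an exact p of 0.0625. The 8 ratios that passed could therefore not pass with the replicate block. Their adjusted p in the sign-flip test was 0.1375 for ITGA10 to ITGA2 and 0.0859 for the rest. Their shifts are the same values, -4.64, -5.90, -4.07, -1.26, 1.83, -2.13, -0.94 and -5.01. Without a donor the smallest exact p is 0.0286 before adjustment over 11 pairs. A ratio at that p passes or fails by how many of the other pairs also reach it, so the calls below do not rank donors by influence. All 8 ratios lost their call without donor 1, 2, 3 or 5 (adjusted p 0.0524 to 0.118), and without donor 4 all but ITGA11 to ITGA1 (0.0698) kept it (0.0449). Shifts ranged from -5.22 to -4.03 (ITGA11 to ITGA10), -6.56 to -4.97 (ITGA11 to ITGA2), -4.82 to -3.39 (ITGA11 to ITGA1), -1.62 to -0.94 (ITGA10 to ITGA2), 1.58 to 2.28 (ITGA2 to ITGA1), -2.40 to -1.995 (DDR2 to DDR1), -1.003 to -0.81 (ITGA1 to ITGB1) and -5.78 to -4.33 (ITGA11 to ITGB1). The cause of these changes was not tested.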
